A study of Mus musculus with 6 samples.

Results

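The genes described here are those of glucose breakdown and of the response to low oxygen, 32 genes taken by symbol from lists of textbook members and kept in 2 groups. The glycolysis group held 22 genes, from the glucose transporters to lactate dehydrogenase and pyruvate dehydrogenase kinase, and the hypoxia group held 10 genes. A row with the gene's symbol was found for 30 of the 32, namely 20 glycolysis genes and all 10 hypoxia genes, among 19571 rows with a gene symbol. Gpi1 and Eno1 were not analysed here.

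Glycolysis turns glucose into pyruvate in the cytosol and yields ATP without oxygen, and lactate dehydrogenase then turns pyruvate into lactate. Osteoblasts are known to draw much of their energy from this route, also where oxygen is plentiful. When oxygen is short, the transcription factor HIF-1, whose oxygen-sensitive subunit is encoded by Hif1a, is no longer marked for breakdown by the prolyl hydroxylases (Egln genes) and raises transcription of most glycolytic enzymes and of many other targets.

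Expression was measured in MC3T3-e1 cells, an osteoblastic line from mouse calvaria, either WT or Tmem161a-KO, with 3 arrays of each, to look for genes whose level goes with Tmem161a. The Tmem161a-KO cells carried deletions made with CRISPR/Cas9 and were 1 line obtained by limited dilution, so that a difference between this line and the WT cells cannot be told apart from an effect of losing Tmem161a. The culture day, the medium and the cell density at RNA extraction were not found in the labels or the methods. Nothing in the labels says that the 3 arrays of a group came from separate cultures, so the p-values rest on the spread of these samples alone, which may be technical. RNA was taken from whole cultures, in which fewer cells of a type and less RNA per cell cannot be told apart.

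All values below are normalised intensities on a linear scale, and differences are log2 values of Tmem161a-KO minus WT, fitted with limma over all 19571 rows, with p-values adjusted by the Benjamini-Hochberg method over those rows. Genes counted as called, higher or lower, had an adjusted p under 0.05. By that rule 1122 rows were higher (5.73%) and 817 lower (4.17%), together 9.91% of rows, and the median row differed by -0.01. Higher rows made up 57.9% of the calls, but 72.5% when each array was centred on its median and 52.0% after quantile normalization. The Tmem161a probe set read 1155, 1061 and 1229 in WT and 936, 1001 and 963 in Tmem161a-KO (log2 difference -0.25, limma adjusted p = 0.192). Every Tmem161a-KO array lay below every WT array, as for 14.4% of all rows. What the deletions do to the RNA that this probe set detects was not tested. Olfactory receptor genes, which these cells should not express, served as the background, and 95% of their 1091 rows lay at or below an intensity of 100.1. Of 8 measured osteoblast markers, Col1a1, Col1a2 and Sparc were far above background and Alpl, Ibsp and Dmp1 were below background in both groups. Bglap (267 in WT and 216 in Tmem161a-KO) did not pass, and Sp7, an osteoblast transcription factor, rose from 174 ± 12.1 to 849 ± 154 (SD, n = 3 each, log2 difference 2.27, limma adjusted p = 3.68e-08), whose part in the results below was not tested. All 4 measured adipocyte markers and all 4 measured macrophage markers were below background in both groups, whereas 4 of 5 chondrocyte markers, Sox9 among them, and 3 of 5 skeletal muscle markers (Myog, Acta1 and, in WT, Ckm) were not.

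The third array of each group stood apart for the genes described here, though not over the whole array. The third WT array was the highest of its group for 19 of the 30 genes and the third Tmem161a-KO array for 19 of 30, and both held for 16 genes (53.3%). Over all rows both held for 10.2%, and over rows above the median row for 11.5%. The median excess of the third array over the other arrays of its group was 0.17 in WT and 0.23 in Tmem161a-KO on the log2 scale, against values within 0.02 of 0 over all rows. What set these arrays apart was not tested, and values without both of them are given below as well. That pattern was noticed after the values were seen.

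**Figure D1:**
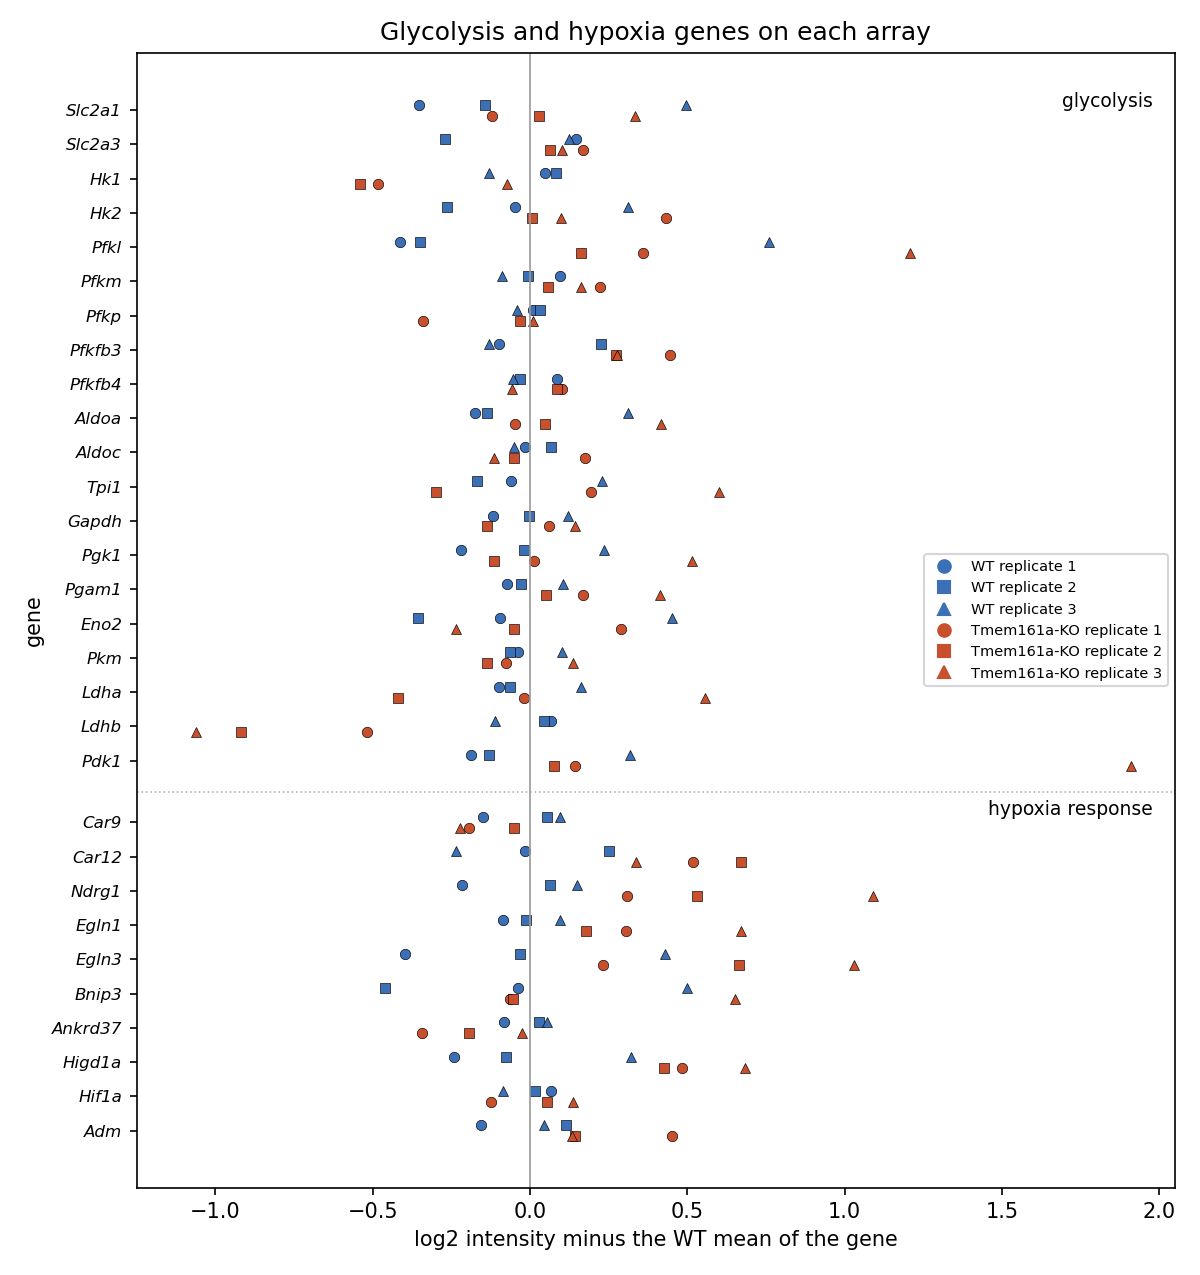
Intensity of each gene on each of the 6 arrays relative to its WT mean (log2), glycolysis genes above and hypoxia genes below, WT in blue, Tmem161a-KO in orange and the shape giving the replicate number. The third array was the highest of its group in both groups for 16 of the 30 genes, whereas Ldhb was lower on every Tmem161a-KO array than on every WT array.

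The glycolysis group had a median difference close to 0 between WT and Tmem161a-KO cells. Of its 20 measured genes none was called higher and 1, Ldhb, was called lower, or 5% against 9.91% of all rows. In at least 1 group 17 of the 20 were brighter than the median row, and 15.6% of rows above it were called. At an unadjusted limma p under 0.05, where 24.4% of all rows lay, 1 gene was higher and 2 were lower. The median difference was 0.10, with 16 genes above 0 and 4 below, and the differences ran from -0.83 (Ldhb) to 0.71 (Pdk1). Without the third arrays 1 glycolysis gene was called higher and 2 lower, with a median of 0.08, where 3.54% of all rows were called higher and 2.29% lower.

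**Figure D2:**
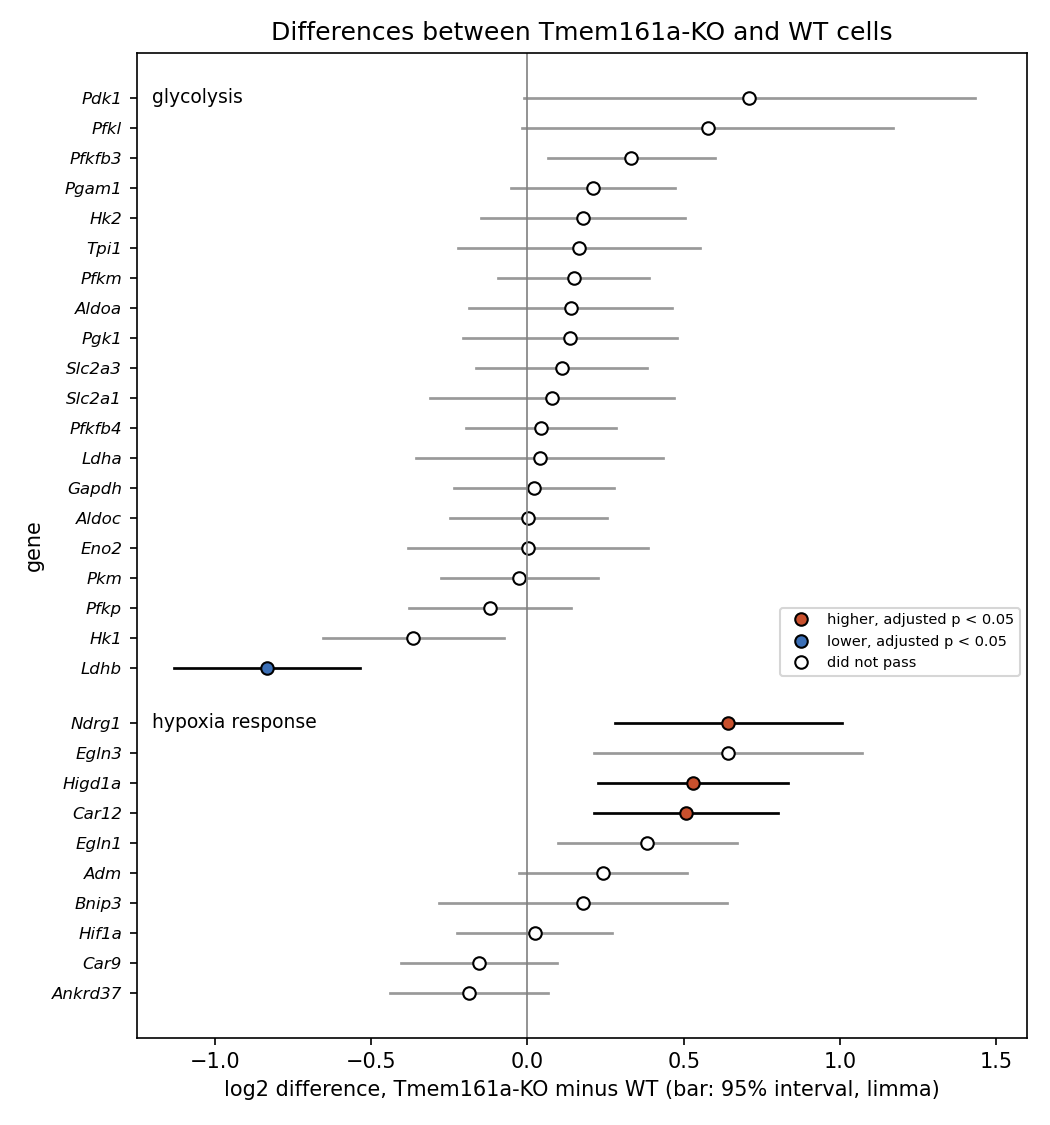
Fitted difference of each gene between Tmem161a-KO and WT (log2) with its 95% confidence interval, in the glycolysis and hypoxia groups. Ldhb lay furthest below 0, and Car12, Ndrg1 and Higd1a were the called genes above 0.

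Glucose enters these cells through facilitative transporters. Slc2a1, the basal transporter GLUT1, read 12519, 14478 and 22556 in WT and 14697, 16295 and 20152 in Tmem161a-KO. The groups overlapped and the difference was 0.08 ± 0.18 (SE, n = 3 per group, limma adjusted p = 0.838, 95% interval -0.31 to 0.47), and 0.20 without the third arrays (limma adjusted p = 0.486). Slc2a3, the high-affinity transporter GLUT3, was below background in both groups, at 46.2 to 62.5 on the 6 arrays.

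Hexokinases trap glucose in the cell by phosphorylating it, and phosphofructokinase takes the committed step. Hk2, the hexokinase that HIF and insulin raise, read 2020, 1739 and 2594 in WT and 2817, 2096 and 2236 in Tmem161a-KO, with a difference of 0.18 ± 0.15 (SE, limma adjusted p = 0.521), or 0.37 without the third arrays (limma adjusted p = 0.238). Hk1, the hexokinase found in most tissues, read 8896, 9120 and 7859 in WT and 6157, 5921 and 8185 in Tmem161a-KO. The first and second Tmem161a-KO arrays lay below every WT array and the third lay among them, so that Hk1 did not pass in the fit over all arrays (-0.37 ± 0.14, SE, limma adjusted p = 0.106). It was called lower without the third arrays (-0.58 ± 0.14, limma adjusted p = 0.0282) and when only the third Tmem161a-KO array was left out (-0.51). That was 1 of the 6 fits without a single array, and Hk1 was not called in the others, with differences from -0.51 to -0.28 over the 6.

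Pfkl, the liver-type phosphofructokinase subunit, read 1057, 1105 and 2382 in WT and 1803, 1574 and 3253 in Tmem161a-KO, and the third array stood in both groups well above the other arrays of its group. The difference of 0.58 ± 0.28 (SE, limma adjusted p = 0.218) became 0.64 ± 0.14 without the third arrays (limma adjusted p = 0.0205). Of the 6 fits without a single array, Pfkl was called in 1, that without the third WT array (0.96), which removes the highest WT value. These 6 differences ran from 0.26 to 0.96, with limma adjusted p-values up to 0.635. The muscle-type and platelet-type subunits Pfkm and Pfkp did not pass, at 0.15 (limma adjusted p = 0.464) and -0.12 (limma adjusted p = 0.594). Hk1, Pfkl, Egln3, Bnip3, Pdk1 and Car9 are given array by array because of the values they showed.

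Pfkfb3 makes fructose 2,6-bisphosphate, the activator of phosphofructokinase. Its intensity was 461, 577 and 451 in WT and 671, 596 and 598 in Tmem161a-KO. Every Tmem161a-KO array lay above every WT array, but the difference of 0.33 ± 0.13 (SE, 95% interval 0.06 to 0.60) did not pass over all rows (limma adjusted p = 0.112). Groups that did not overlap in that direction were found for 14.5% of all rows and in the opposite one for 14.4%, together 28.9%. The difference of Pfkfb3 was 0.29 without the third arrays (limma adjusted p = 0.324). The related Pfkfb4 differed by 0.04 (limma adjusted p = 0.860).

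None of the measured enzymes between the phosphofructokinase and lactate dehydrogenase steps passed the test, and the enolase Eno1 was not analysed. Gapdh, glyceraldehyde-3-phosphate dehydrogenase and a common reference gene, read 177691, 192469 and 209395 in WT and 200800, 175366 and 212856 in Tmem161a-KO. The difference was 0.02 ± 0.12 (SE, limma adjusted p = 0.942), with a 95% interval of -0.23 to 0.28, and it was also 0.02 without the third arrays. Pgk1, phosphoglycerate kinase and a long-known HIF-1 target, read 15630, 17955 and 21415 in WT and 18327, 16801 and 25976 in Tmem161a-KO. The groups overlapped and the difference was 0.14 ± 0.16 (SE, limma adjusted p = 0.654), or 0.07 without the third arrays. Aldoa, Tpi1, Pgam1 and Pkm differed by -0.03 to 0.21, with limma adjusted p-values of 0.320 to 0.928, and the minor isozymes Aldoc and Eno2 both differed by 0.00, Eno2 by 0.34 without the third arrays (limma adjusted p = 0.263). With means of 111 in WT and 109 in Tmem161a-KO, Eno2 was near background. Several of these enzymes, Gapdh and Ldha among them, have near-identical processed pseudogenes in the mouse genome, and how far their probes separate the copies was not stated.

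The only glycolysis gene that passed was Ldhb, the heart-type subunit of lactate dehydrogenase, which favours turning lactate back into pyruvate. It read 302, 298 and 267 in WT and 201, 153 and 138 in Tmem161a-KO, a mean of 289 ± 19.3 against 164 ± 33.2 (SD, n = 3 each). Every Tmem161a-KO array lay below every WT array. WT was 1.78-fold higher, a log2 difference of -0.83 ± 0.14 (SE, 95% interval -1.13 to -0.54, limma adjusted p = 0.000963). Ldhb stayed called when any single array was left out, with differences of -0.99 to -0.72, and without the third arrays (-0.78, limma adjusted p = 0.0137). The methods' t-test did not call it after Benjamini-Hochberg adjustment.

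Ldha, the muscle-type subunit, which favours lactate production and is among the best known HIF-1 targets, gave no such difference. It read 52915, 54322 and 63448 in WT and 55975, 42391 and 83337 in Tmem161a-KO, so the Tmem161a-KO arrays held both the lowest and the highest value. The difference was 0.04 ± 0.19 (SE, limma adjusted p = 0.932), with a 95% interval of -0.36 to 0.43. It was -0.14 without the third arrays (limma adjusted p = 0.684). A difference between the 2 genes was not tested.

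The stretches upstream of both genes are shown because the subunits are close relatives, of which 1 was called, and because Ldha is a textbook HIF-1 target. Each is the 250 bases before the most upstream RefSeq start on GRCm38.p6, written 5′ to 3′ on the gene's strand, at chr7:46845554-46845803 (plus strand) for Ldha and chr6:142507958-142508207 (minus strand) for Ldhb. Capitals mark the letters ACGTG or GCGTG on either strand, the core that HIF binds.
Ldha: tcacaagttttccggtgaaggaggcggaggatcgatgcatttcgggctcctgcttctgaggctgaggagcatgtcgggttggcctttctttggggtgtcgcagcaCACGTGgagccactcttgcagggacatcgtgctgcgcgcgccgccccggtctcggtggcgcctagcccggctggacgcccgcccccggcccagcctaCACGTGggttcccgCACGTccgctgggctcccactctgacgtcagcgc
Ldhb: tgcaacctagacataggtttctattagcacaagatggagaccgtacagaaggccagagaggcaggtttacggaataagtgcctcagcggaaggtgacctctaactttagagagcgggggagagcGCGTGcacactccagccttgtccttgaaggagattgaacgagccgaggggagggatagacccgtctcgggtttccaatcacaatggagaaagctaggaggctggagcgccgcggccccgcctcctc
The Ldha stretch held 5 matches at 3 places, all ACGTG, and matches that overlap or that read the same on both strands were counted on each. The Ldhb stretch held 1 match, GCGTG. One or more matches were present before 43.9% of 17492 mouse protein-coding genes, before 14 of 19 glycolysis genes with an entry (73.7%) and before 8 of 9 hypoxia genes (88.9%). The ACGTG form alone was present before 17.6% of all genes, 36.8% of the glycolysis genes and 66.7% of the hypoxia genes. Base composition was not matched in these shares, and a match is a run of letters and not a site shown to be bound.

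Pdk1, the kinase that shuts off pyruvate dehydrogenase and so keeps pyruvate out of the mitochondrion, is a HIF-1 target placed in the glycolysis group. It read 253, 263 and 359 in WT and 318, 303 and 1083 in Tmem161a-KO. The third Tmem161a-KO array exceeded the mean of the other Tmem161a-KO arrays by 1.80 on the log2 scale and the difference was 0.71 ± 0.34 (SE, limma adjusted p = 0.212). Without the third arrays the difference was 0.27 ± 0.14 (limma adjusted p = 0.306).

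The hypoxia group leaned towards higher values in Tmem161a-KO cells. Of its 10 genes 3 were called higher (Ndrg1, Higd1a and Car12) and none lower, or 30% against 5.73% of all rows called higher, and at an unadjusted limma p under 0.05 these counts were 5 and 0, where 24.4% of all rows lay in either direction. In at least 1 group 6 of the 10 were brighter than the median row, and 15.6% of rows above it were called in either direction. The median difference was 0.31, with 8 genes above 0, and for 5 genes every Tmem161a-KO array lay above every WT array, as for 14.5% of all rows. The mean of the 10 genes, each taken relative to its own mean, stood at -0.27, -0.15 and -0.0039 in WT samples and at 0.02, 0.10 and 0.31 in Tmem161a-KO samples. Without the third arrays 1 gene, Higd1a, was called higher, against 3.54% of all rows, and the median was 0.30. With so few genes the counts move by a gene or more between settings, from 0 to 3 when single arrays were left out.

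Ndrg1, a stress-induced cytoplasmic protein raised by low oxygen and encoded on chromosome 15, read 1338, 1624 and 1722 in WT and 1921, 2243 and 3303 in Tmem161a-KO. The groups did not overlap, with means of 1561 ± 199.8 and 2489 ± 723 (SD, n = 3 each) and a 1.56-fold higher level in Tmem161a-KO. The log2 difference was 0.64 ± 0.17 (SE, 95% interval 0.28 to 1.01, limma adjusted p = 0.0255). The call was lost when the third Tmem161a-KO array (0.42), the first WT array (0.54) or the second WT array (0.67) was left out, and without the third arrays (0.49, limma adjusted p = 0.0912). Ndrg1 did not pass after quantile normalization (0.57, limma adjusted p = 0.0534). With each array centred on its median it passed (0.70, limma adjusted p = 0.0154).

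Higd1a encodes a small inner-membrane protein of the mitochondrion that associates with the respiratory chain. It read 431, 483 and 636 in WT and 713, 684 and 818 in Tmem161a-KO, with the highest WT array below the lowest Tmem161a-KO array. The means were 517 ± 107 and 738 ± 70.3 (SD, n = 3 each), a log2 difference of 0.53 ± 0.14 (SE, 95% interval 0.23 to 0.83, limma adjusted p = 0.0279). The call was lost in 4 of the 6 fits without a single array, those without the first or the second WT array or the first or the third Tmem161a-KO array (0.41 to 0.55), yet it held without the third arrays (0.61, limma adjusted p = 0.0240). Higd1a did not pass after quantile normalization (0.49, limma adjusted p = 0.0529). With each array centred on its median it passed (0.59, limma adjusted p = 0.0152).

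Car12, a carbonic anhydrase of the cell surface that turns carbon dioxide into bicarbonate and acid outside the cell, was dimmer than the median row. It read 145, 174 and 124 in WT and 209, 233 and 185 in Tmem161a-KO, and the third array was here the lowest of its group in both groups. The means were 148 ± 25 and 209 ± 24.1 (SD, n = 3 each), a log2 difference of 0.51 ± 0.14 (SE, 95% interval 0.21 to 0.80, limma adjusted p = 0.0294). It too was lost in 4 of the 6 fits without a single array, those without the first or the third WT array or the first or the second Tmem161a-KO array (0.39 to 0.50), and without the third arrays (0.48, limma adjusted p = 0.0929). Car9, the surface carbonic anhydrase used most often as a hypoxia marker, read 104, 120 and 124 in WT and 101, 112 and 99.3 in Tmem161a-KO, near background, and did not pass (-0.15, limma adjusted p = 0.455).

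**Figure D3:**
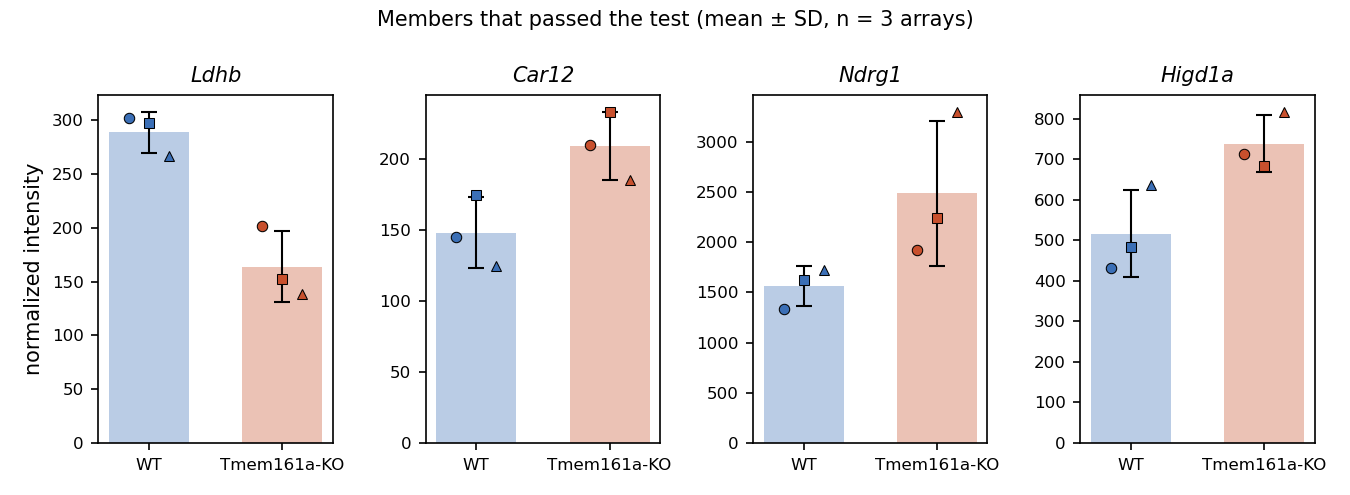
Intensity of Ldhb, Car12, Ndrg1 and Higd1a on each array (points, linear axis from 0) with the mean (bar) and SD (error bar) of each group of 3. Every Tmem161a-KO array lay below every WT array for Ldhb and above every WT array for the other genes.

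Among the oxygen sensors, Egln1 (PHD2), the main prolyl hydroxylase that marks HIF-1 alpha for breakdown, read 2599, 2733 and 2945 in WT and 3401, 3115 and 4387 in Tmem161a-KO. Its groups did not overlap, but the difference of 0.38 ± 0.13 (SE, 95% interval 0.10 to 0.67) did not pass over all rows (limma adjusted p = 0.0860), nor did the difference of 0.29 without the third arrays (limma adjusted p = 0.275). Egln3 (PHD3), a hydroxylase that is itself induced by HIF, read 206, 266 and 366 in WT and 319, 431 and 554 in Tmem161a-KO, with a difference of 0.64 ± 0.20 (SE, limma adjusted p = 0.0580). The third WT array lay above the first Tmem161a-KO array, and leaving out either of these removes the overlap. Egln3 was called in these 2 of the 6 fits without a single array (0.86 and 0.85). Over the 6 fits the difference ran from 0.44 to 0.86, with limma adjusted p-values up to 0.238. Egln3 was not called without the third arrays of both groups (0.66, limma adjusted p = 0.0545). Both genes passed when each array was centred on its median, Egln1 at 0.44 (limma adjusted p = 0.0483) and Egln3 at 0.70 (limma adjusted p = 0.0372). Neither passed after quantile normalization, Egln1 at 0.29 (limma adjusted p = 0.204) and Egln3 at 0.66 (limma adjusted p = 0.0637).

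Hif1a itself, which is controlled mainly through the stability of its protein, read 15361, 14833 and 13822 in WT and 13446.5, 15228 and 16130 in Tmem161a-KO. The difference was 0.02 ± 0.12 (SE, limma adjusted p = 0.937, 95% interval -0.23 to 0.27), and -0.08 without the third arrays (limma adjusted p = 0.817). An array of RNA does not measure the protein.

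Of the remaining hypoxia genes, Bnip3, a mitochondrial protein of mitophagy and cell death, read 1773, 1322 and 2573 in WT and 1742, 1752 and 2859 in Tmem161a-KO. The first and second arrays of the groups overlapped and the third array was far the highest in each, with a difference of 0.18 ± 0.22 (SE, limma adjusted p = 0.668), or 0.19 without the third arrays. Ankrd37, an ankyrin-repeat protein and HIF-1 target, differed by -0.19 (limma adjusted p = 0.361). Adm, the precursor of the vasodilator peptide adrenomedullin, read 49.1, 59.2 and 56.4 in WT and 74.8, 60.5 and 60.0 in Tmem161a-KO. Its groups did not overlap, yet all 6 values were below background, and the difference of 0.24 did not pass (limma adjusted p = 0.259).

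The stretches before Higd1a and Car12, which were called, and before Bnip3, which was not, are shown in the same way to set a match count beside each result. They lie at chr9:121857797-121858046 (minus strand), chr9:66713436-66713685 (plus strand) and chr7:138909507-138909756 (minus strand) on GRCm38.p6, from RefSeq.
Higd1a: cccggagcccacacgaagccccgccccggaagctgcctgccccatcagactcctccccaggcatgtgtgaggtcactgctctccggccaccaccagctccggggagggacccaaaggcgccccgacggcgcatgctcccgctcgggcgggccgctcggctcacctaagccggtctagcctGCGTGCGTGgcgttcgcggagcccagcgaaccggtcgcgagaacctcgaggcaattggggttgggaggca
Car12: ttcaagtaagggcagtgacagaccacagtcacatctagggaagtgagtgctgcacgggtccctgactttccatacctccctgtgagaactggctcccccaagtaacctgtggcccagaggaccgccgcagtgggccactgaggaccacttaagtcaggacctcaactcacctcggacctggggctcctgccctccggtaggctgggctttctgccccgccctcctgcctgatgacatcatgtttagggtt
Bnip3: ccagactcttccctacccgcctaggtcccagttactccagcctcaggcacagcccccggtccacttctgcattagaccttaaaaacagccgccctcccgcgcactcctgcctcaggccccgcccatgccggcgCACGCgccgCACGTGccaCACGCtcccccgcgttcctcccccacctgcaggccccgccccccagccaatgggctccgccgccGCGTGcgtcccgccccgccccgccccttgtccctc
The Higd1a stretch held 2 overlapping GCGTG matches, the Car12 stretch none, and the Bnip3 stretch 5 matches at 4 places, 2 of them ACGTG. The called gene Car12 was the hypoxia gene without a match, and the stretches with the most matches, those of Ldha and Bnip3, belonged to genes that did not pass. The glycolysis genes Hk1, Aldoa, Tpi1, Eno2 and Pkm had no match either and were not called in the fit over all arrays. The genes shown were picked with their results known, and a relation of matches to calls was not tested. No match says only that these letters are not in this window. Slc2a3 and Ndrg1 had no entry.

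The third array was the highest in both groups for 16 genes, in WT alone for 3 (Hk2, Eno2 and Car9) and in Tmem161a-KO alone for 3 (Hk1, Pfkp and Hif1a). Relative to the other arrays of its group, the third array was higher by 1.14 in WT and 0.95 in Tmem161a-KO for Pfkl, by 0.75 and 0.71 for Bnip3, by 0.64 and 0.58 for Egln3, by 0.74 and 0.38 for Slc2a1 and by 0.47 and 0.42 for Aldoa, all on the log2 scale. Tpi1 (0.34 and 0.65), Ldha (0.24 and 0.77) and Pgk1 (0.35 and 0.57) also stood highest on the third array in both groups, with the larger gap in Tmem161a-KO. Eno2 (0.68 and -0.35), Hk2 (0.47 and -0.12) and Hk1 (-0.20 and 0.44) had gaps of opposite sign. Across the 30 genes the gap in WT and the gap in Tmem161a-KO correlated at r = 0.50, against 0.02 over all rows, which describes these 6 arrays with no test. Of the 22 genes brighter than the median row, 15 were highest on the third arrays (68.2%), against 11.5% of all such rows. Hif1a, with gaps of -0.13 and 0.17, was not among these 15.

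**Figure D4:**
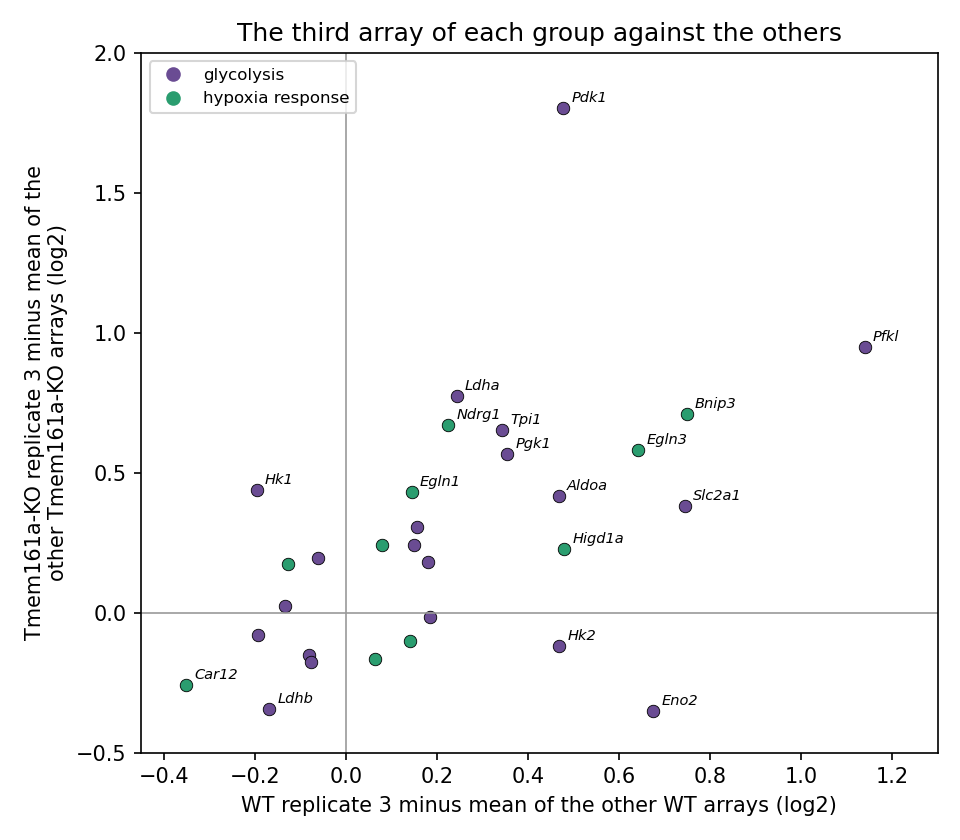
Excess of the third array over the other arrays of its group for each gene (log2), WT on the horizontal axis and Tmem161a-KO on the vertical axis. Pfkl, Bnip3 and Egln3 were raised on the third arrays, and Pdk1 reached 1.80 in Tmem161a-KO.

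These genes also varied more within the groups than most rows. The median within-group SD of the 22 brighter genes was 0.24 on the log2 scale, against 0.14 over all rows above the median row, and 9 of the 22 had an SD above the 95th percentile of those rows (Pdk1, Pfkl, Bnip3, Egln3, Ldha, Slc2a1, Tpi1, Ndrg1 and Pgk1). Among rows above the median row 15.6% were called and 38.8% had groups that did not overlap. Of the 4 called genes, Ndrg1 and Higd1a were highest on the third array in both groups and Ldhb and Car12 were not.

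Beyond the 32 genes, 13 further genes of the HIF subunits and of oxygen sensing were measured, of which 2 were called higher (15.4%, against 5.73% of all rows) and none lower (median 0.09). In at least 1 group 10 of the 13 were brighter than the median row, and 15.6% of rows above it were called in either direction. Arnt2, a partner subunit of HIF, rose by 0.61 (limma adjusted p = 0.00623) and Siah2, a ubiquitin ligase that targets prolyl hydroxylases, by 0.54 (limma adjusted p = 0.00633). None of the 13 was called without the third arrays, with differences of about the same size for Arnt2 (0.58, limma adjusted p = 0.0615) and Siah2 (0.52, limma adjusted p = 0.0577).

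Of 27 other measured HIF target genes 5 were called higher and 1 lower (22.2% in all, against 9.91% of all rows), with a median of 0.19, and 9 were highest on the third arrays. In at least 1 group 22 of the 27 were brighter than the median row, and 15.6% of rows above it were called. The largest rises were in P4ha2, a collagen prolyl hydroxylase (1.08, limma adjusted p = 0.000202), Ero1a, an oxidase of disulfide formation (0.81, limma adjusted p = 0.0162), Plod2, a collagen lysyl hydroxylase (0.77, limma adjusted p = 0.00104), and Lox, which crosslinks collagen (0.68, limma adjusted p = 0.00783). Jmjd6 (0.43) rose as well and Tmem45a fell by 0.42, both named for their result. Ero1a lies on chromosome 14, as do Pdhb and Pck2 below, where 32.9% of 689 rows were called higher. Without the third arrays P4ha2, Plod2, Lox and Edn1, the precursor of endothelin, were called higher and none lower, where 3.54% of all rows were called higher. The difference of Ero1a was then 0.68 (limma adjusted p = 0.148). Its groups overlapped over all arrays, at 1695, 2656 and 2168 in WT and 2598, 4461 and 4562 in Tmem161a-KO.

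The other lists around glycolysis had shares of calls near or little above the 9.91% of all rows, with 1 gene each. Of 11 other isozymes 1 was called (9.09%), Adpgk, an ADP-dependent glucokinase (0.87, limma adjusted p = 0.000143, and 0.92 without the third arrays, limma adjusted p = 0.00267), while the median of the list was -0.13. Of 12 other glucose transporters 1 was called (8.33%), Slc5a2, a sodium-coupled transporter of the kidney, which fell by 0.45 (limma adjusted p = 0.0285) and was not called without the third arrays (-0.43, limma adjusted p = 0.141). The pentose phosphate pathway had 1 call among 7 genes (14.3%), Pgls (0.50), and gluconeogenesis and glycogen 1 among 12 (8.33%), Pck2, the mitochondrial phosphoenolpyruvate carboxykinase (0.72). Pck2 was also called without the third arrays (0.74, limma adjusted p = 0.0402) and Pgls was not (0.44, limma adjusted p = 0.119).

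Entry of pyruvate into the mitochondrion had the largest share of calls among these lists, 5 of 12 genes (41.7%) against 9.91% of all rows. All 12 were brighter than the median row, and 15.6% of rows above it were called. Pdp1, the phosphatase that switches pyruvate dehydrogenase on, fell by 0.93 (limma adjusted p = 0.00134) and Pcx, pyruvate carboxylase, by 0.72 (limma adjusted p = 0.000608). Pdhb and Pdhx, which encode parts of the pyruvate dehydrogenase complex, rose by 0.59 (limma adjusted p = 0.00255) and 0.41 (limma adjusted p = 0.0495), and Pdk3, a kinase of the same family as Pdk1, rose by 0.42 (limma adjusted p = 0.0284). Pdhx and Pdk3, the smallest of these differences, were not called without the third arrays (0.35 and 0.50), whereas Pdp1, Pcx and Pdhb were. All 5 are named because of their result.

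Near relatives and partners of the hypoxia genes moved in both directions. Of 14 other carbonic anhydrases 3 were called (21.4%, against 9.91% of all rows). Car13 (-0.93, limma adjusted p = 0.000429) and Car5b (-0.88, limma adjusted p = 0.00281) were called lower and Car6 (0.86), which was below background in WT, higher. Car13 (-1.12) and Car5b (-1.17) were also called without the third arrays and Car6 was not (0.64, limma adjusted p = 0.134). Of 5 genes listed around the adrenomedullin receptors (Calcrl, Ramp1, Ramp2, Ramp3 and Ackr3) 1 was called (20%, against 9.91% of all rows). Ramp3, a receptor subunit, fell from 1537 ± 438 to 382 ± 46.3 (SD, n = 3 each), a log2 difference of -1.97 (limma adjusted p = 3.65e-06), and -1.76 without the third arrays (limma adjusted p = 0.000469). Calcrl and Ramp2, of the same list, were below background in both groups, as was Adm. None of 5 other NDRG and HIGD genes was called, at an unadjusted limma p either.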

How the data were processed

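By the methods, cRNA was made from the RNA of 3 WT and 3 Tmem161a-KO samples, fragmented and hybridized to Clariom S mouse arrays. The deposited values are linear intensities of 22205 rows, normalized by the authors with GeneSpring, and 0 columns belonged to other samples. For background correction and probe summarization no method was stated. Probe sets were named through GEO's platform annotation (19571 rows with a symbol, 2634 without).

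Intensities were log2 transformed with a pseudocount of 0 and fitted with limma 3.58.1 (lmFit, eBayes) in R 4.3.3, after tests on simulated data. Array medians of intensity were 204 to 215 and correlations within groups 0.9961 to 0.9967, and 3 arrays per group limit the precision. An exact permutation test of 3 against 3 cannot go below p = 0.1. The genes and lists were chosen with earlier results of these data known. Values on every array were given for called genes, genes whose groups did not overlap and 6 genes regardless of result, with others added after their values were seen. From other lists at most 4 called genes were named, with exceptions stated. A symbol on several rows took its brightest row. The alternatives are in the closing section. Upstream sequences were taken from RefSeq for 28 of the 30 genes.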

Additional observations from a re-analysis of the deposited data

How the results depend on the processing

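No difference of a gene changed sign while called. The medians kept their direction, at 0.03 to 0.20 for glycolysis and 0.25 to 0.46 for hypoxia. The count of hypoxia genes called higher, 3, became 1 after quantile normalization, 5 with each array centred on its median, 0 at an adjusted p under 0.01 and 0 to 3 without single arrays. Glycolysis genes called higher, 0, became 0 to 1 without single arrays, and those called lower, 1, became 1 to 2, or 0 without rows below the median row, since Ldhb was then not tested. The methods' t-test called 2038 genes higher and 1878 lower unadjusted, and 114 and 76 after Benjamini-Hochberg adjustment, when 0 glycolysis, 0 hypoxia and 0 of the other listed genes were called. Limma called 581 higher and 382 lower at an adjusted p under 0.01, with 13 of the other listed genes in place of 21, and 729 to 965 higher and 497 to 703 lower without single arrays, with 15 to 20 of the other listed genes. Without the third arrays, chosen after seeing the data, 693 were higher and 449 lower, with 1 glycolysis gene higher, 2 lower, 1 hypoxia gene higher and 12 of the other listed genes. Deviations of arrays with the same number correlated at 0.072, 0.094 and 0.020 over all rows, so the numbers were not taken as a pairing, although number 3 reached 0.50 over the 30 genes. With the replicate number as a block 2 glycolysis genes were called higher (Pfkl, adjusted p = 0.0065, and Pdk1, adjusted p = 0.0440) and Egln3 passed among 4 hypoxia genes (adjusted p = 0.00214). The causes were not tested.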
